A study of Mus musculus with 10 samples.

Results

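The transcripts described here encode 33 enzymes, transporters and co-factors that make, remodel, export or break down ceramides and the other lipids of the skin's water barrier. They were taken by gene symbol from a fixed list, with no measured value in the rule. The list was, however, chosen with earlier results of these data known. All 33 were found among the 20611 genes in each mouse's table. The list was read in 12 steps, from the first reaction of sphingoid base synthesis to the ceramidases. Expression was measured by mRNA sequencing of whole mouse skin in 5 Klk6+ and 5 WT mice, with 1 library per mouse. Protein, enzyme activity and lipids are not part of these data. Klk6+ mice carried a Tetos-Klk6 transgene, encoding mouse kallikrein-related peptidase 6 (a secreted serine protease) with a C-terminal Myc/His tag, together with the K5-tTA driver. That driver places a tetracycline transactivator under the bovine keratin 5 promoter, so the transgene is on in epidermal keratinocytes and some other stratified epithelia unless doxycycline is given. WT mice were littermates with no transgene or with 1 of the pair. The Klk6 transgene is not expressed without the driver. Both lines were backcrossed to C57BL/6. Per the labels' protocol, Klk6+ mice were given doxycycline chow again when 10 to 11 weeks old, shortly before they would have stopped eating and become moribund, and animals were sampled when 14 to 16 weeks old. It does not say whether WT mice were given that chow, nor how long it was given before sampling, so the state of the transgene at sampling rests on the measured Klk6 level. Each genotype held 3 males (mice 1 to 3) and 2 females (mice 4 and 5), and the numbers do not pair mice between genotypes.

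Ceramides are built from a sphingoid base and a fatty acid. In the upper epidermis the base is joined to very long fatty acids, some of them hydroxylated at their far end and esterified to linoleate, and the products are glucosylated, packed into lamellar bodies and secreted. Outside the cells they are trimmed back to ceramides that form lamellae between corneocytes, and a part is bound to protein as the corneocyte lipid envelope. Inherited loss of several of these genes, among them Abca12, Cers3, Alox12b, Aloxe3, Pnpla1, Nipal4 and Slc27a4, causes ichthyosis or lethal barrier failure at birth.

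Counts were scaled to library size (CPM) with edgeR's trimmed mean factors and tested with edgeR's quasi-likelihood test with sex as covariate. Genes with a Benjamini-Hochberg adjusted p below 0.05 over the 14861 genes tested were called, and log2 fold changes are Klk6+ against WT, ± standard error. WT libraries held 32798416 to 41970272 counts and Klk6+ libraries 26521019 to 39796511, and the lowest count of any of the 33 genes in a library was 27 (Degs2, WT 5). Klk6 stood at 12.7 to 26.5 CPM over the WT mice and at 10293 to 14773 CPM over the Klk6+ mice, a log2 fold change of 9.45 ± 0.22 (adjusted p = 5.57e-09), so Klk6 transcripts were still high at sampling in every Klk6+ mouse after the labelled return of doxycycline. The tissue differed widely between genotypes: summed skeletal muscle markers were 55551 to 84308 over the WT mice and 4187 to 8529 CPM over the Klk6+ mice, macrophage markers 1502 to 7745 over the WT mice and 504 to 1603 CPM over the Klk6+ mice, and sebocyte (sebaceous gland cell) markers 362 to 1250.1 over the WT mice and 2735 to 6591 CPM over the Klk6+ mice. Keratinocyte markers identified the tissue as skin in every library, with summed basal markers of 3566 to 9626 over the WT mice and 13212 to 19201 CPM over the Klk6+ mice and suprabasal markers of 5402 to 15358 over the WT mice and 10239 to 18996 CPM over the Klk6+ mice. In whole tissue, fewer cells of a type and less RNA per cell cannot be told apart.

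All 33 genes passed the filter on low counts. Of them 25 were called higher in Klk6+, beside 37.7% of all genes tested, and 4 were called lower, beside 35.1% of all genes. Thus 29 were called in either direction, beside 72.8% of all genes, and Cers5, Sgms2, Smpd3 and Aloxe3 were not called. A fold change of at least 2 in the higher direction was reached by 23 of the 33, beside 15.7% of all genes. The median log2 fold change was 1.69 over the 33 genes and 0.04 over all genes tested. In 22 of the 33 every Klk6+ mouse lay above every WT mouse, beside 30.1% of all genes, and in Cers6, Sgms1 and Asah1 every Klk6+ mouse lay below, beside 27.0%.

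**Figure D1:**
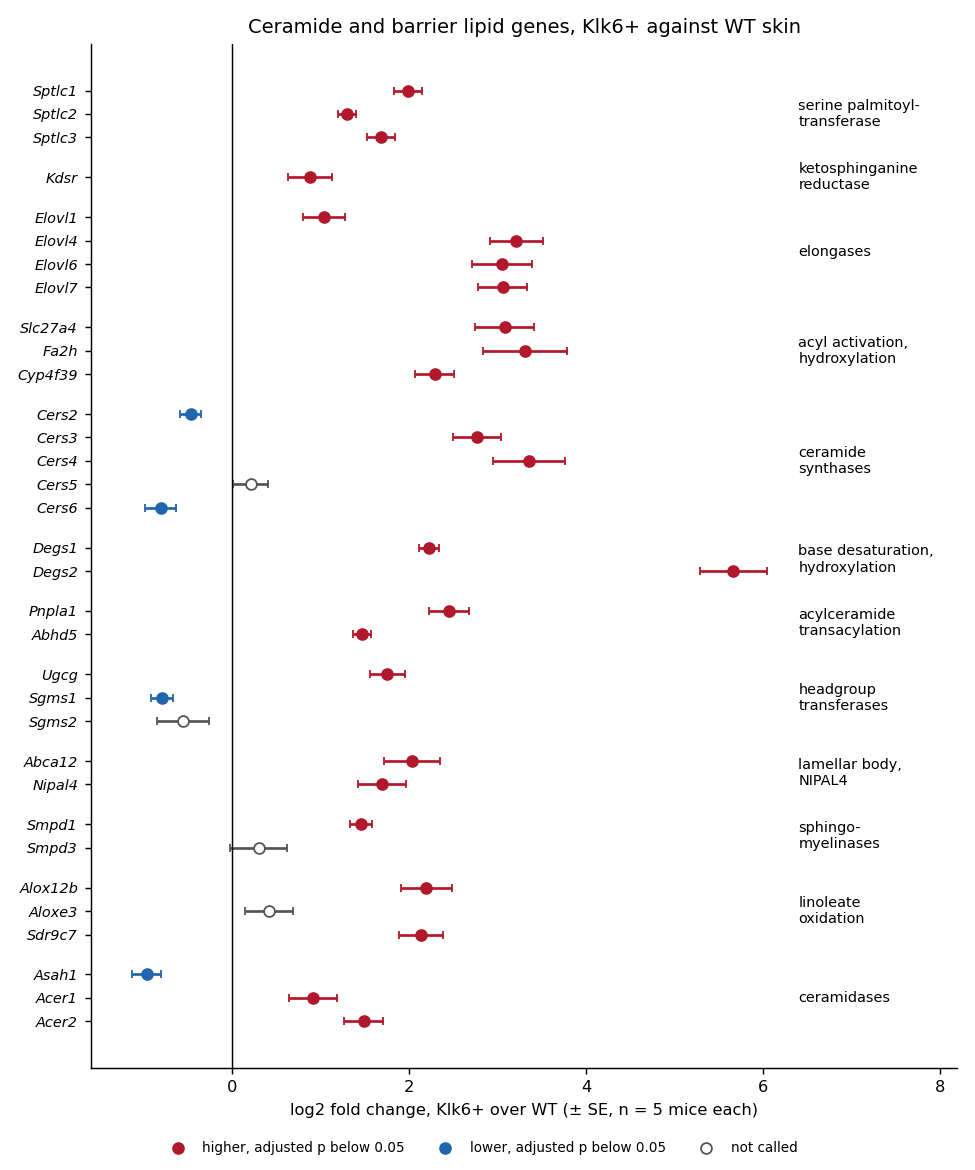
Log2 fold change of each of the 33 genes (Klk6+ against WT, x axis; bars are ± 1 standard error), with genes ordered by pathway step on the y axis. The change is highest for Degs2, at 5.67, and the genes called lower are Cers2, Cers6, Sgms1 and Asah1.

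Together the 33 genes took 0.312% ± 0.0942 of all counts in WT (SD, n = 5) and 1.53% ± 0.417 in Klk6+. The shares by mouse were 0.423%, 0.396%, 0.288%, 0.242% and 0.209% in WT 1 to WT 5 and 2.00%, 1.80%, 1.36%, 1.57% and 0.925% in Klk6+ 1 to Klk6+ 5. The groups did not overlap, and WT 5 and Klk6+ 5, both females, had the lowest share of their genotype. Elovl4 alone accounted for 0.0639% ± 0.0361 of counts in WT and 0.515% ± 0.161 in Klk6+.

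The promoters of 3 genes are shown because these genes rose in Klk6+ at different steps of the pathway, chain elongation (Elovl4), ceramide synthesis (Cers3) and export (Abca12). Each is the run of 250 bases just before the first listed RefSeq start in GRCm38.p6, 5′ to 3′ on the gene's strand, and none overlaps a GENCODE exon. In GENCODE M21 on GRCm38 the protein-coding genes span chr9:83778692-83806277 (Elovl4), chr7:66743504-66823691 (Cers3) and chr1:71242276-71414910 (Abca12). Capitals mark matches to the motifs searched. The Elovl4 promoter lies on chromosome 9 at chr9:83806306-83806555 (minus strand) and holds 2 overlapping GC boxes, at bases 14 to 9 and 9 to 4 before the start. The Cers3 promoter is at chr7:66743254-66743503 (plus strand), with 1 CACCC box read on the other strand, at bases 65 to 61. The Abca12 promoter, at chr1:71414911-71415160 (minus strand), held no match.
Elovl4: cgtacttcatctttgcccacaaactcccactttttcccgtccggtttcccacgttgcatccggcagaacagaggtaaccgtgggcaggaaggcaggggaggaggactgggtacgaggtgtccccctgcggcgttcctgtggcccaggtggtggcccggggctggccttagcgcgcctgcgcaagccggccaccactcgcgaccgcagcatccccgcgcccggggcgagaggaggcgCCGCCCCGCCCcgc
Cers3: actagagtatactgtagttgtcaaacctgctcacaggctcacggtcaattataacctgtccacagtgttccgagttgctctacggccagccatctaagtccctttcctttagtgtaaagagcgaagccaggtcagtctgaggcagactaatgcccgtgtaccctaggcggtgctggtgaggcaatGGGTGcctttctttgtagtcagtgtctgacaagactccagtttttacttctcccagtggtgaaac
Abca12: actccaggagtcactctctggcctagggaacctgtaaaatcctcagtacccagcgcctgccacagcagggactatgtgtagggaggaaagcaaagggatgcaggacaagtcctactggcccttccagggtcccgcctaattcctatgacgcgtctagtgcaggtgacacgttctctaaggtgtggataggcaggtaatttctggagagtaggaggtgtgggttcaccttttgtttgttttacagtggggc

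RefSeq promoters were matched for 29 of the 33 genes (not in the table used were Fa2h, Smpd3, Aloxe3 and Asah1), and each motif was searched on both strands. The GC box GGGCGG, a sequence bound by Sp1 and Krüppel-like factors, was in 18 of the 29 promoters (62.1%), beside 32.9% of all 27025 promoters of that length. The genes with a GC box included members of both directions, such as Cers4 and Slc27a4, which rose, and Cers2 and Sgms1, which fell. CACCC was in 17 of 29 (58.6%, beside 51.3% of all promoters), and CCAAT in 8 (27.6%, beside 34.5%). Of the rarer motifs, TATAAA was found in Sdr9c7 alone (3.45%, beside 13%) and the C/EBP letters TTGCNNAA in Nipal4 and Sptlc3 (6.90%, beside 9.55%). No member promoter held the AP-1 letters TGANTCA (6.87% of all), the grainyhead-like letters AACNGGTT (1.71%), the SREBP letters TCACNCCAC (1.04%) or the PPAR direct repeat, 2 copies of AGGTCA with 1 base between them (0.0370%). These are matches of letters in 1 window per gene and show no binding. The 27025 promoters were not limited to the genes tested for expression. The shares therefore cannot show whether a motif is more frequent in the 29 matched genes than in other expressed genes. Among the 29 windows some overlap GENCODE exons, such as those of Cers2 (4 exons) and Elovl6 (3 exons), unlike the printed ones.

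Transcripts of all 4 genes of sphingoid base synthesis rose. Serine palmitoyltransferase joins serine and palmitoyl-CoA in the first and rate-limiting reaction, and Sptlc1 encodes its shared subunit. Sptlc1 stood at 63.5, 70.1, 55.7, 58.4 and 53.3 CPM in WT 1 to WT 5 and at 171, 298, 293, 236 and 197 CPM in Klk6+ 1 to Klk6+ 5. Every Klk6+ mouse lay above every WT mouse, and the log2 fold change was 1.99 ± 0.16 (edgeR adjusted p = 2.5e-06). The 2 alternative catalytic subunits changed in the same direction. Sptlc2 spanned 42.9 to 58.0 over the WT mice and 109 to 142 CPM over the Klk6+ mice, a log2 fold change of 1.30 ± 0.10 (adjusted p = 2.14e-06), and Sptlc3 spanned 22.0 to 56.5 over the WT mice and 95.8 to 153 CPM over the Klk6+ mice, a change of 1.68 ± 0.15 (adjusted p = 5.95e-06). In FPKM, counts per length and library size as deposited, the 3 subunits summed to 47.3 ± 5.08 in WT and 159 ± 24.2 in Klk6+ (SD, n = 5). The ratio of Sptlc3 to Sptlc2 FPKM overlapped between genotypes, at 0.527 to 1.83 in WT and 1.07 to 1.69 in Klk6+.

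Kdsr, the reductase that turns ketosphinganine into sphinganine, was called higher with a smaller fold change. It stood at 44.5, 34.3, 38.1, 37.3 and 36.8 CPM in WT 1 to WT 5 and at 114, 81.6, 49.7, 75.6 and 35.7 CPM in Klk6+ 1 to Klk6+ 5. Klk6+ 5 lay within the WT values and the other Klk6+ mice above them. The log2 fold change was 0.88 ± 0.25 (adjusted p = 0.00956).

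The 4 fatty acid elongases, which lengthen acyl-CoA chains, were all called higher, with Elovl4 the most abundant of the 33 genes by FPKM in both genotypes. Elovl4 makes the ultra-long chains of acylceramides. It stood at 1025, 959.9, 577, 347 and 234 CPM in WT 1 to WT 5 and at 6867, 6695, 4775, 5327 and 2649 CPM in Klk6+ 1 to Klk6+ 5, a log2 fold change of 3.21 ± 0.30 (adjusted p = 6.96e-06). The groups did not overlap, but within each genotype the mice were spread more than 2-fold, with Klk6+ 5 lowest among Klk6+ and WT 5 lowest among WT. Elovl6, which extends palmitate to stearate, spanned 99.8 to 362 over the WT mice and 544 to 3240.2 CPM over the Klk6+ mice (3.05 ± 0.34, adjusted p = 2.06e-05). Elovl7, which acts on saturated long chains, spanned 29.1 to 121 over the WT mice and 387 to 681 CPM over the Klk6+ mice, a log2 fold change of 3.06 ± 0.28 (adjusted p = 5.72e-06). Elovl1, which carries saturated chains into the very long range, changed least, with 102 to 207 over the WT mice and 197 to 423 CPM over the Klk6+ mice and a log2 fold change of 1.04 ± 0.23 (adjusted p = 0.00241). The Elovl1 groups overlapped, and the other elongases' did not. Exons of Elovl1 overlap those of Cdc20 on the opposite strand, and since the library kit does not mark strand, reads of the pair cannot be told apart.

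In FPKM the elongases summed to 321 ± 150 in WT and 2126 ± 614 in Klk6+ (SD, n = 5). Elovl4 made up 56.2% ± 7.0 of that sum in WT and 74.1% ± 3.28 in Klk6+, and Elovl1 29.7% ± 7.16 and 9.53% ± 5.63. The ratio of Elovl4 to Elovl1 did not overlap between genotypes, at 1.30 to 2.78 in WT and 3.76 to 19.6 in Klk6+. By contrast the ratio of Elovl4 to Elovl6 overlapped, at 4.49 to 7.42 in WT and 4.27 to 9.81 in Klk6+.

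**Figure D2:**
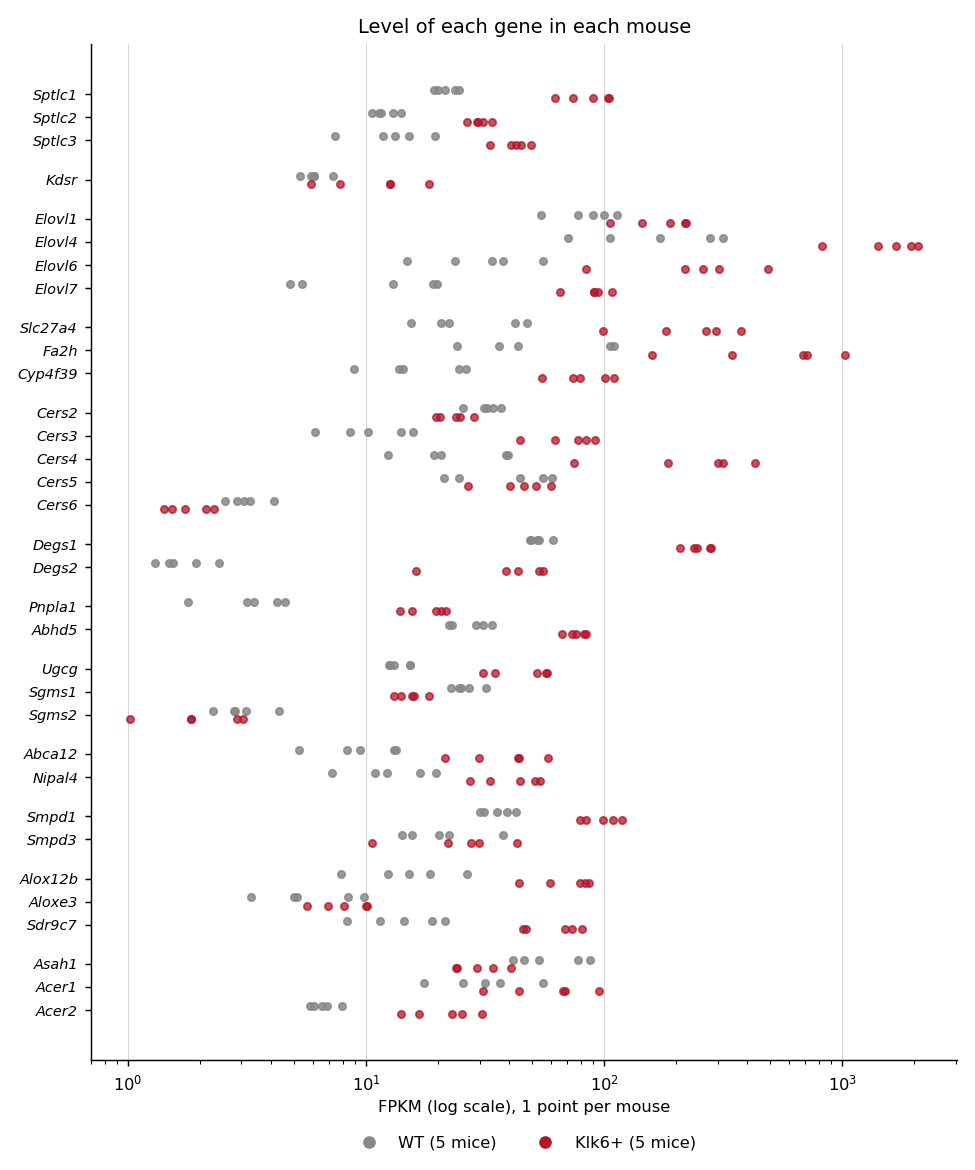
FPKM of the 33 genes in each mouse (log scale), ordered by pathway step, with WT and Klk6+ mice as separate points. Elovl4 is highest in both genotypes, with means of 189 FPKM in WT and 1589 FPKM in Klk6+.

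The genes of fatty acid activation and hydroxylation all rose. Fa2h adds the 2-hydroxyl group of 2-hydroxy ceramides and is also known for its role in sebaceous gland lipids. It stood at 286, 293, 117, 94.8 and 64.1 CPM in WT 1 to WT 5 and at 2732, 1959, 938, 1741 and 411 CPM in Klk6+ 1 to Klk6+ 5. Its log2 fold change was 3.31 ± 0.48 (adjusted p = 0.000129), with no overlap, and Klk6+ 5 was the Klk6+ mouse nearest to WT. Slc27a4, the fatty acid transport protein that activates very long chains, spanned 68.5 to 206 over the WT mice and 426 to 1654 CPM over the Klk6+ mice, a log2 fold change of 3.08 ± 0.33 (adjusted p = 1.73e-05). Cyp4f39 is the mouse counterpart of CYP4F22, the hydroxylase that places the terminal hydroxyl group to which linoleate is attached. It spanned 25.1 to 72.3 over the WT mice and 150.3 to 320.5 CPM over the Klk6+ mice, a log2 fold change of 2.29 ± 0.22 (adjusted p = 7.87e-06).

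The ceramide synthases, which join base and acyl chain, changed in different directions: Cers3 and Cers4 rose, Cers2 and Cers6 fell, and Cers5 was not called. Cers4 accepts long saturated chains and has been described in sebaceous glands and hair follicles. It stood at 156, 162, 83.7, 76.7 and 50.0 CPM in WT 1 to WT 5 and at 1719, 1318, 763, 1162 and 292 CPM in Klk6+ 1 to Klk6+ 5. That was a log2 fold change of 3.35 ± 0.40 (adjusted p = 3.6e-05), again with Klk6+ 5 the lowest of its group and above every WT mouse. Cers3, the synthase of ultra-long acylceramides in the upper epidermis, spanned 21.6 to 58.4 over the WT mice and 156 to 331 CPM over the Klk6+ mice, a log2 fold change of 2.77 ± 0.27 (adjusted p = 8.56e-06). The broadly expressed Cers2, which prefers very long chains, spanned 52.7 to 78.2 over the WT mice and 42.7 to 58.4 CPM over the Klk6+ mice and fell by 0.47 ± 0.12 in log2 units (adjusted p = 0.00503). The palmitoyl-selective Cers6 spanned 11.1 to 17.5 over the WT mice and 6.12 to 9.65 CPM over the Klk6+ mice and fell by 0.81 ± 0.17 (adjusted p = 0.00179). Cers5, also palmitoyl-selective, spanned 44.2 to 124 over the WT mice and 55.0 to 131 CPM over the Klk6+ mice, with a log2 fold change of 0.21 ± 0.20 (adjusted p = 0.352). Values of the genotypes overlapped for Cers2 and Cers5 only. Exons of Cers2 overlap Setdb1 on the opposite strand, with the same limit as for Elovl1.

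These changes altered the makeup of the synthase family, whose summed FPKM was 113 ± 31.2 in WT and 403 ± 128 in Klk6+ (SD, n = 5). Cers4 made up 22.1% ± 5.24 of the sum in WT and 60.5% ± 17.0 in Klk6+. Cers3 made up 9.46% ± 1.29 and 20.8% ± 12. Cers2 fell from 30.5% ± 10.8 to 6.75% ± 3.85 and Cers5 from 35.0% ± 7.07 to 11.4% ± 1.33. The ratio of Cers3 to Cers2 did not overlap between genotypes, at 0.164 to 0.548 in WT and 2.17 to 3.96 in Klk6+. The ratio of Cers3 to Cers4 did overlap, and the Klk6+ mice differed among themselves, at 0.103, 0.247, 0.493, 0.205 and 1.12 in Klk6+ 1 to Klk6+ 5 against 0.354 to 0.495 in WT. Klk6+ 5 was the only one of the 10 mice with more Cers3 than Cers4.

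**Figure D3:**
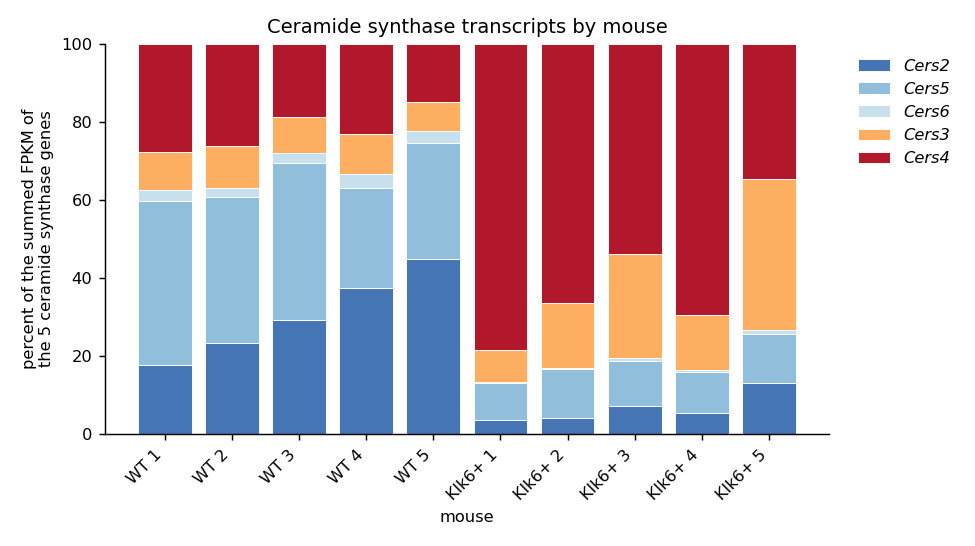
Share of each ceramide synthase in the summed FPKM of Cers2 to Cers6 in each mouse (y axis in percent, 1 bar per mouse, bars start at 0). Cers4 averages 22.1% in WT and 60.5% in Klk6+, and Cers3 reaches 38.8% in Klk6+ 5.

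Both sphingoid base desaturase genes rose. Degs1 encodes the desaturase that forms the sphingosine base, and Degs2 encodes a desaturase and hydroxylase that forms the phytosphingosine base frequent in epidermal ceramides. Degs2 stood at 1.24, 1.08, 1.20, 0.878 and 0.806 CPM in WT 1 to WT 5 and at 19.9, 58.0, 73.3, 46.8 and 67.3 CPM in Klk6+ 1 to Klk6+ 5. The change, 5.67 ± 0.37 in log2 units (adjusted p = 9.49e-07), was the largest of the 33 genes, from the lowest WT level by FPKM. Exons of Degs2 overlap Evl on the opposite strand. Counts and FPKM also disagreed in size for Degs2: it had 12.5 to 36.3 counts per unit of FPKM in WT and 33.8 to 50.5 in Klk6+, and limma on log2(FPKM + 0.1) gave 4.41 (adjusted p = 8.69e-07). Degs1 stood at 108, 133, 104, 102 and 112 CPM in WT 1 to WT 5 and at 499.5, 604, 604, 492 and 426 CPM in Klk6+ 1 to Klk6+ 5. The Klk6+ mice were within a narrow band, and the log2 fold change was 2.23 ± 0.11 (adjusted p = 3e-07). The ratio of Degs2 to Degs1 FPKM was 0.0214 to 0.0489 in WT and 0.0674 to 0.256 in Klk6+, without overlap.

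Both transcripts of acylceramide transacylation rose as well. Pnpla1 transfers linoleate onto the hydroxylated ceramide, and Abhd5 (CGI-58) is its co-activator. Pnpla1 stood at 22.3, 21.9, 17.0, 15.6 and 8.90 CPM in WT 1 to WT 5 and at 68.7, 107, 99.7, 74.1 and 105 CPM in Klk6+ 1 to Klk6+ 5. Klk6+ 1 was the lowest Klk6+ mouse and still above the highest WT mouse, and the log2 fold change was 2.45 ± 0.22 (adjusted p = 5.76e-06). Abhd5, the more abundant of the pair by FPKM, stood at 113, 103, 107, 77.8 and 76.2 CPM in WT 1 to WT 5 and at 261, 262, 289, 274 and 221 CPM in Klk6+ 1 to Klk6+ 5. The 2 groups did not overlap, with a log2 fold change of 1.47 ± 0.10 (adjusted p = 1.15e-06).

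Among the headgroup transferase transcripts Ugcg rose, and Sgms1 and Sgms2 did not. Ugcg glucosylates ceramide before it is packed into lamellar bodies, whereas Sgms1 and Sgms2 make sphingomyelin. Ugcg stood at 61.4, 64.9, 51.4, 51.0 and 53.7 CPM in WT 1 to WT 5 and at 126, 221, 241, 137 and 227 CPM in Klk6+ 1 to Klk6+ 5. Its log2 fold change was 1.75 ± 0.19 (adjusted p = 2.04e-05), with Klk6+ 1 and Klk6+ 4 lower than the other Klk6+ mice. Sgms1 spanned 82.8 to 123 over the WT mice and 45.9 to 65.0 CPM over the Klk6+ mice and fell by 0.79 ± 0.12 in log2 units (adjusted p = 0.00022). Sgms2 spanned 15 to 29.3 over the WT mice and 6.60 to 19.3 CPM over the Klk6+ mice, with a log2 fold change of -0.56 ± 0.29 that was not called (adjusted p = 0.11). Without Klk6+ 3 it was -0.77 (adjusted p = 0.0465), and without Klk6+ 5 it was -0.78 (adjusted p = 0.0421), both called lower.

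Both genes grouped under lamellar body transport, Abca12 and Nipal4, rose. Abca12 is the lipid transporter that loads lamellar bodies, and Nipal4 (ichthyin) is a membrane protein whose loss causes ichthyosis. Abca12 stood at 121, 132, 89.9, 77.4 and 49.4 CPM in WT 1 to WT 5 and at 202, 432, 419, 270.1 and 535 CPM in Klk6+ 1 to Klk6+ 5. Klk6+ 5 was highest and Klk6+ 1 lowest, and all lay above the WT mice, with a log2 fold change of 2.03 ± 0.32 (adjusted p = 0.000223). Nipal4 stood at 59.5, 73.9, 44.4, 38.8 and 26.0 CPM in WT 1 to WT 5 and at 98.1, 190.5, 163, 114 and 188 CPM in Klk6+ 1 to Klk6+ 5. The order of the Klk6+ mice was similar, with Klk6+ 1 lowest, and the log2 fold change was 1.69 ± 0.27 (adjusted p = 0.000251).

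The sphingomyelinases, which release ceramide from sphingomyelin, were split. Smpd1, the acid sphingomyelinase that acts in the extracellular domains, stood at 108, 105, 92.0, 79.3 and 77.2 CPM in WT 1 to WT 5 and at 202, 318, 284, 207 and 246 CPM in Klk6+ 1 to Klk6+ 5. It rose without overlap, by 1.46 ± 0.13 in log2 units (adjusted p = 4.36e-06). The neutral sphingomyelinase gene Smpd3 spanned 79.3 to 216 over the WT mice and 60.7 to 242 CPM over the Klk6+ mice and its change of 0.30 ± 0.32 was not called (adjusted p = 0.419). Its WT values alone covered most of the range of both groups, and its exons overlap Prmt7 on the opposite strand.

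Of the genes that oxidise linoleate in acylceramides for the corneocyte lipid envelope, 2 of 3 rose. The lipoxygenases Alox12b and Aloxe3 act in sequence, and Sdr9c7 dehydrogenates their product. Alox12b stood at 45.1, 68.7, 38.0, 30.5 and 19.6 CPM in WT 1 to WT 5 and at 109, 224, 202, 142 and 201 CPM in Klk6+ 1 to Klk6+ 5. With Klk6+ 1 again lowest of its group, the log2 fold change was 2.2 ± 0.29 (adjusted p = 7.27e-05). Sdr9c7 spanned 25.6 to 64.9 over the WT mice and 138 to 242 CPM over the Klk6+ mice, a change of 2.13 ± 0.25 (adjusted p = 2.97e-05). Aloxe3 spanned 8.93 to 27.7 over the WT mice and 15.4 to 28.5 CPM over the Klk6+ mice, and its change of 0.41 ± 0.27 was not called (adjusted p = 0.196). The ratio of Aloxe3 to Alox12b FPKM was therefore lower in every Klk6+ mouse, at 0.398 ± 0.0484 in WT (range 0.331 to 0.456) and 0.117 ± 0.00968 in Klk6+ (range 0.102 to 0.129). It was the paralogue ratio with the smallest spread relative to its mean in Klk6+.

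**Figure D4:**
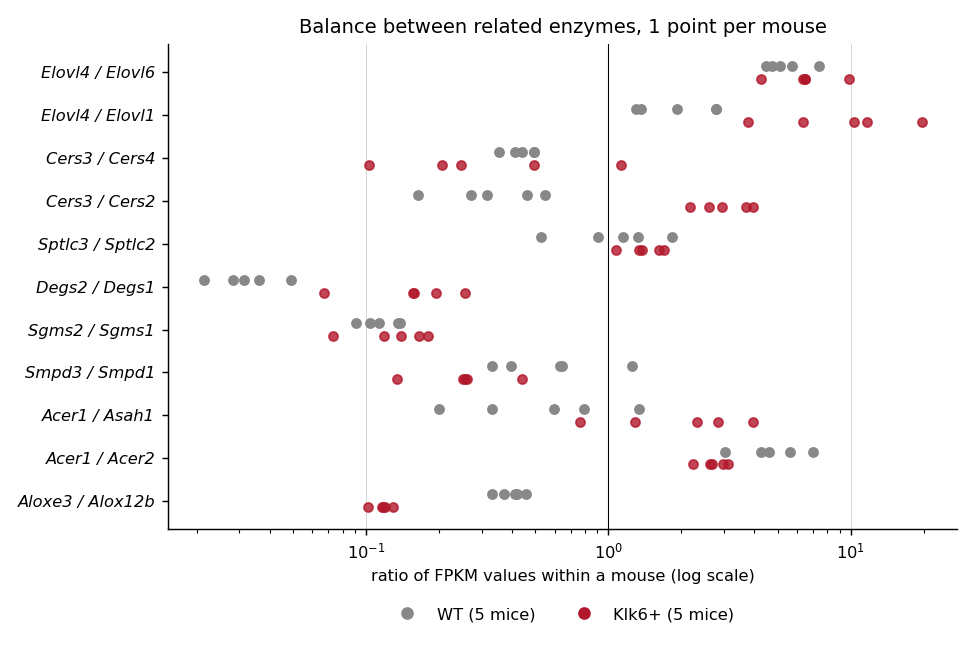
Ratios of FPKM between paralogous or sequentially acting genes in each mouse (log scale), with WT and Klk6+ as separate points. The ratio of Aloxe3 to Alox12b lies at 0.331 to 0.456 in WT and 0.102 to 0.129 in Klk6+, while the ratio of Cers3 to Cers4 overlaps.

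The ceramidases, which cleave ceramide to sphingosine, also moved in different directions. Acer2, a Golgi alkaline ceramidase, had the largest change, at 28.6, 23.7, 25.2, 22.0 and 22.0 CPM in WT 1 to WT 5 and at 104, 90.5, 51.5, 65.7 and 36.2 CPM in Klk6+ 1 to Klk6+ 5. The log2 fold change was 1.49 ± 0.22 (adjusted p = 0.000143), with the groups separate. Acer1, the alkaline ceramidase of the upper epidermis and sebaceous glands, stood at 140.0, 98.2, 82.6, 65.5 and 45.4 CPM in WT 1 to WT 5 and at 245, 181, 116, 169 and 78.4 CPM in Klk6+ 1 to Klk6+ 5. Klk6+ 3 and Klk6+ 5 lay within the WT values, and the log2 fold change of 0.92 ± 0.27 was called (adjusted p = 0.0112). Asah1, the lysosomal acid ceramidase, spanned 96.2 to 208 over the WT mice and 57.1 to 94.5 CPM over the Klk6+ mice and fell by 0.97 ± 0.16 in log2 units (adjusted p = 0.000366). By FPKM it went from the 4th of the 33 genes in WT, at 61.0, to the 23rd in Klk6+, at 30.4. The family sum differed less than its makeup, at 101 ± 10.1 FPKM in WT and 113 ± 25.1 FPKM in Klk6+ (SD, n = 5), with Asah1 making up 59.8% ± 15.6 and 28.9% ± 12.8 and Acer2 6.63% ± 1.14 and 19.0% ± 2.13. Median counts per unit of FPKM for Acer2 were 127 in WT and 103 in Klk6+. That ratio was 0.813, against 0.916 for Asah1 and Acer1, so Acer2 rose more in FPKM than in counts.

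The genes called lower moved beside several lists of other cell types. All 12 skeletal muscle, all 9 adipocyte, all 7 fibroblast and all 9 macrophage markers were called lower in Klk6+, beside 35.1% of all genes. Their median log2 fold changes were -3.34, -1.58, -1.61 and -2.02. Of the T lymphocyte markers 4 of 5 were called lower, with a median of -1.01. No defining marker of these lists was at 0 in either genotype. Within WT, summed macrophage markers were 1502, 1984, 2697, 6207 and 7745 CPM in WT 1 to WT 5. Asah1 and Cers2 were also highest in WT 5, whereas Cers6 was highest in WT 1 and lowest in WT 5, and Sgms1 was highest in WT 2 and lowest in WT 4. The part of these cell types in the falls of Asah1, Cers2, Cers6 and Sgms1 was not tested.

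The Klk6+ mice were not alike, and the 33 genes differed in which of these mice was high. The grouping that follows was made after the values were seen and has no test. For 8 genes the highest Klk6+ mouse was Klk6+ 1 and the lowest Klk6+ 5, namely Kdsr, Elovl4, Elovl6, Slc27a4, Fa2h, Cers4, Acer1 and Acer2; this order held for 14.7% of all genes. In these the Klk6+ 5 level was 0.151 to 0.386 of the Klk6+ 1 level. For 17 genes Klk6+ 1 was the lowest instead, beside 24.0% of all genes, and Klk6+ 5 stood at 1.14 to 3.98 times Klk6+ 1. They were Sptlc1, Sptlc2, Elovl1, Cers2, Cers3, Cers6, Degs2, Pnpla1, Ugcg, Sgms2, Abca12, Nipal4, Smpd1, Smpd3, Alox12b, Aloxe3 and Asah1, of which 11 were called higher, 3 lower and 3 not called. The other 8 genes followed neither order. Taken singly, 14 genes were lowest in Klk6+ 5 (beside 29.0% of all genes), 8 highest in Klk6+ 5 (beside 27.8%) and 8 highest in Klk6+ 1 (beside 25.1%).

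**Figure D5:**
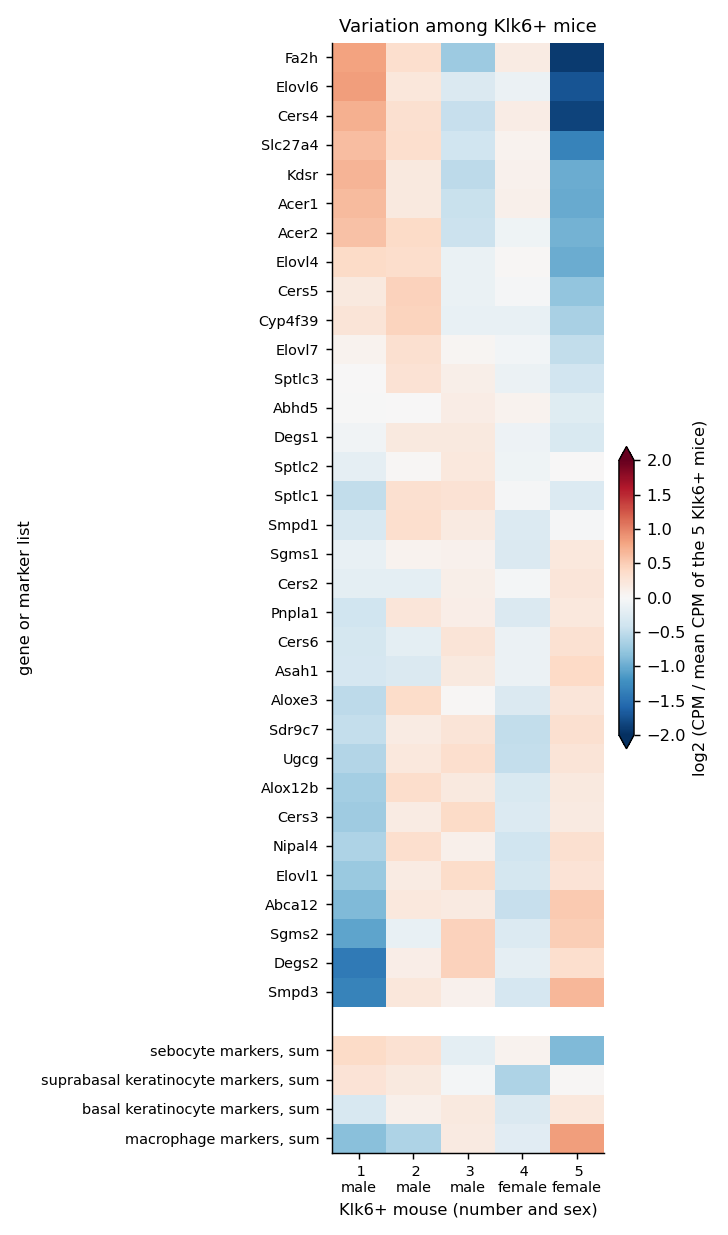
Level of each of the 33 genes in each Klk6+ mouse relative to the gene's own Klk6+ mean (log2 of CPM over that mean, colour), with genes sorted by the ratio of Klk6+ 5 to Klk6+ 1 and summed marker lists beneath. The 8 genes at the top are highest in Klk6+ 1 and lowest in Klk6+ 5, and the sebocyte sum is also lowest in Klk6+ 5.

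Cell type markers differed among the same mice. Summed sebocyte markers were 6591, 6218, 4419, 5313 and 2735 CPM in Klk6+ 1 to Klk6+ 5, against 362 to 1250.1 CPM over the WT mice. Of the 9 sebocyte genes 8 were called higher (Scd3 was not), with a median log2 fold change of 2.62, and 6 had the order with Klk6+ 1 highest and Klk6+ 5 lowest. Summed basal keratinocyte markers were 1.45 times as high in Klk6+ 5 as in Klk6+ 1, summed suprabasal markers 0.843 times, and summed macrophage markers 3.18 times. Single suprabasal markers differed in direction, at 0.604 to 1.63 times. Krt1, Krt10, Krtdap and Casp14 were lower in Klk6+ 5 than in Klk6+ 1, whereas Ivl, Lor, Dsg1a, Dsc1 and Sbsn were higher. Krt1, at 8867 CPM in Klk6+ 1 and 5353 CPM in Klk6+ 5, weighed most in the sum. Summed hair follicle markers spread more widely, at 509.5, 4928, 28.01, 930.8 and 40.31 CPM in Klk6+ 1 to Klk6+ 5. Over the WT mice these sums were 52.0 to 365 CPM. Klk6+ 3 and Klk6+ 5 thus had the lowest hair follicle sums of the Klk6+ mice and lay below every WT mouse. They also had the highest neutrophil sums, at 310.1 CPM in Klk6+ 3 and 254.4 CPM in Klk6+ 5. Of the basal markers 3 of 7 were called higher (42.9%) and 2 lower (28.6%), and of the suprabasal markers 5 of 9 higher (55.6%) and 2 lower (22.2%), beside 37.7% and 35.1% of all genes. No defining marker of the sebocyte or keratinocyte lists was at 0 in either genotype. The part of cell makeup in the order of the 33 genes over these mice was not tested. All 25 genes called higher were still called higher with Klk6+ 3 and Klk6+ 5 both left out, an alternative chosen after the data were seen.

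WT mice also differed, in an order that often followed sex. In 22 of the 33 genes all 3 WT males lay above both WT females, beside 24.2% of all genes, and in Sptlc2 and Asah1 both females lay above all males, beside 19.2%. WT male means were 3.46 times the female mean for Elovl7, 2.94 times for Elovl4, 2.92 times for Fa2h and 1.30 times for Smpd1. The male means cover unlike mice. For Fa2h, WT 3 (117 CPM) lay nearer the females (94.8 and 64.1) than WT 1 and WT 2 (286 and 293). For Elovl7, WT 3 (79.5 CPM) lay nearer WT 1 and WT 2 (118 and 121) than the females (32.3 and 29.1). WT 5 was the lowest WT mouse in 22 of the 33 genes, beside 24.5% of all genes. All 9 sebocyte and 8 of 9 suprabasal markers had the same order of the sexes in WT, and their part was not tested. The labels name no batch, and sex rests here on 3 and 2 mice. WT 1 and WT 2 were also the largest WT libraries, so sex cannot be told apart from other differences between these mice.

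The change from WT to Klk6+ was nominally larger in females for 26 of the 33 genes and for 55.0% of all genes tested. Elovl4 had log2 fold changes of 2.84 in males and 3.78 in females, Abca12 1.62 in males and 2.67 in females, and Alox12b 1.82 in males and 2.77 in females. The median difference, female minus male, was 0.39 over the 33 genes and 0.04 over all genes. None of the 33 passed the edgeR test of the genotype-by-sex interaction, as for 0.00% of all genes, and Elovl7 had the lowest adjusted p of the 33, at 0.237, with 2.51 in males and 3.90 in females. At an unadjusted p below 0.05 there was 1 of the 33, beside 9.49% of all genes (1410 genes). With DESeq2, Elovl7 was called (adjusted p = 0.00147) among 261 genes, and with limma-voom no gene was. In simulated data of this design a 4-fold interaction was recovered in 61% of genes and a 2-fold one in 7%. There every gene had the same spread between mice and few genes changed. The recovery therefore does not describe genes of large spread, such as Fa2h, with an interaction standard error of 0.91.

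Of 29 other sphingolipid genes outside the 33, 27 were tested (Cers1 and Sptssb were not), with a median log2 fold change of 0.28. Of these 11 were called higher (40.7%), 9 lower (33.3%) and 7 neither, shares near the 37.7% and 35.1% of all genes. Sptssa, a small subunit that raises serine palmitoyltransferase activity, rose by 1.49 ± 0.13 (adjusted p = 3.86e-06). Ormdl2, of the family that restrains the enzyme, rose by 0.95 ± 0.08 (adjusted p = 4.23e-06). Its paralogues Ormdl1 and Ormdl3 were not called, at 0.19 ± 0.11 and -0.19 ± 0.14 (adjusted p = 0.157 and 0.248). The ceramide-1-phosphate carrier Cptp rose by 2.04 ± 0.16. Sgpp2, a sphingosine-1-phosphate phosphatase, rose by 5.14 ± 0.45 (adjusted p = 4.39e-06), from 4.29 ± 3.09 to 124 ± 33.6 CPM. The galactosylceramide synthase Ugt8a fell by 2.44 ± 0.37, the lactosylceramide synthase B4galt6 by 2.29 ± 0.19, the saposin precursor Psap by 1.42 ± 0.20 and the alkaline ceramidase Acer3 by 0.80 ± 0.11. Sgpp1 and the ceramide transfer protein gene Col4a3bp, at 0.28 ± 0.12 and 0.22 ± 0.10, were not called (adjusted p = 0.0524 and 0.081).

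Of 22 other genes of fatty acid synthesis, elongation and activation, 21 were tested (Elovl2 was not), with 14 called higher (66.7%, beside 37.7% of all genes), 3 lower (14.3%, beside 35.1%) and 4 neither and a median log2 fold change of 1.01. Fabp5, the epidermal fatty acid binding protein, rose from 203 ± 107 to 5421 ± 724 CPM (4.87 ± 0.27, adjusted p = 4.76e-07). The elongase Elovl3, which is also on the sebocyte list, rose by 5.55 ± 0.54, the desaturase Scd2 by 2.09 ± 0.20 and the elongation dehydratase Hacd3 by 1.92 ± 0.16. Of the paralogues of Hacd3, Hacd2 also rose, by 2.07 ± 0.31, whereas Hacd1 and Hacd4 fell by 2.08 ± 0.12 and 2.83 ± 0.35. The transporter Slc27a1 fell by 0.72 ± 0.17. Acsl1 and Scd3 were not called, at -0.20 ± 0.14 and 0.11 ± 0.33 (adjusted p = 0.208 and 0.77).

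Of 12 tested genes on the list for lamellar bodies and the lipid envelope, 11 were called higher (91.7%, beside 37.7% of all genes), none lower and only Vps33b neither (0.15 ± 0.11, adjusted p = 0.253), with a median of 1.19. Tgm1, the transglutaminase that cross-links the envelope, rose by 3.35 ± 0.25, the cholesterol sulfotransferase Sult2b1 by 3.30 ± 0.19, the epoxide hydrolase Ephx3 by 2.16 ± 0.19 and the trafficking GTPase Rab11a by 1.10 ± 0.09. Of 19 transcription factors tied to barrier lipid genes, 12 were called higher (63.2%), 2 lower (10.5%) and 5 neither, with a median of 0.76. Grhl3 rose by 2.64 ± 0.21, Ovol1 by 2.37 ± 0.16, Cebpb by 1.86 ± 0.13 and Ppard by 1.78 ± 0.14. The liver X receptor genes Nr1h2 and Nr1h3 fell by 0.18 ± 0.08 and 0.48 ± 0.16 (adjusted p = 0.047 and 0.0209). Both calls depended on single libraries, with none of the list called lower without WT 5. Klf4 and Trp63 were not called, at 0.14 ± 0.31 and 0.44 ± 0.20 (adjusted p = 0.703 and 0.0728), and Trp63 passed without Klk6+ 3 (adjusted p = 0.0376) or WT 2 (adjusted p = 0.0154).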

How the data were processed

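RNA from snap-frozen whole skin was made into polyA-selected libraries with a kit that does not mark strand and sequenced as 50-cycle single-end reads, per the labels. For every mouse the authors deposited whole-number read counts per gene, without normalization, and FPKM values, scaled to transcript length and library size. The submitters' processing notes name TopHat2, SAMtools, HTSeq and Cufflinks 2.2.1, with the builds GRCm38 and mm10. How strand and multiply matching reads were handled, and the annotation, were not given in the sources used here.

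Counts were tested in R 4.3.3 with edgeR 4.0.16 (filterByExpr on genotype with a minimum count of 10, trimmed mean scaling, quasi-likelihood F test, sex as covariate, all 10 mice in 1 fit). The interaction came from 4 genotype-by-sex means. P-values were adjusted by Benjamini-Hochberg over 14861 genes and reflect the spread between mice (biological coefficient of variation 0.244). CPM are counts over scaled library sizes. FPKM were used as deposited to compare genes, and limma 3.58.1 (log2(FPKM + 0.1) or + 1; voom) and DESeq2 1.42.0 were alternatives. On simulated data the genotype test recovered 83% of genes changed by a factor of 2 and 100% of those changed by 4, among 14856 genes. The simulation gave every gene the same spread between mice and changed few genes, unlike the measured data. No pair of libraries was a duplicate within sampling noise.

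The 33 genes, the 4 pathway lists and the 10 marker lists were chosen with earlier results of these data known. In each step the gene of largest change and that of highest mean FPKM get values per mouse. Of other pathway lists, up to 4 called genes per direction by smallest p and up to 2 others by mean CPM are named. Hacd2, Ormdl1 and Ormdl3 are given besides, as paralogues of named genes. Hair follicle markers were called higher in 2 of 9 and neutrophil markers in 5 of 5 tested, beside 37.7% of all genes. T lymphocyte markers were called lower in 4 of 5, beside 35.1% of all genes. Of the fixed marker lists Elane was not tested, and Ly6g, Trac, Trdc and Flg were not among the genes listed. Mpo stood at 0 to 0.217 CPM over the WT mice. It passed the low-count filter through its Klk6+ values, so a higher call was nearly fixed in advance. Gene positions are from GENCODE M21 (GRCm38) and promoters from RefSeq (GRCm38.p6).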

Additional observations from a re-analysis of the deposited data

How the results depend on the processing

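The 33 genotype calls were recomputed under 21 alternatives (scaling, filter, tool, covariate, pseudocount, muscle markers left out, a 2-fold minimum, each mouse left out, and Klk6+ 3 with Klk6+ 5 left out, the last chosen after the data were seen). Of 693 values 681 kept direction and call, and 23 of the 33 genes kept both throughout. Against a 2-fold minimum (glmTreat) 22 were called higher and 0 lower, and over all genes 1561 higher and 2165 lower. Otherwise 25 stayed higher in number, and 4 to 5 were lower with a mouse left out (all genes, 4981 to 5507 higher and 4974 to 5488 lower). Sgms2 was called in addition without Klk6+ 3 and Klk6+ 5 together (-1.05, adjusted p = 0.00931). Direction reversed, uncalled, for Cers5 (-0.0472 without Klk6+ 4; -0.0472 to 0.30 over mice left out) and Smpd3 (-0.049 without Klk6+ 3 and 5), for Klf4 (-0.137 without Klk6+ 5, up to 0.419 over mice left out, -0.195 without Klk6+ 3 and 5) and for Scd3 (-0.296 without Klk6+ 4, -0.042 without WT 4, -0.0829 without WT 5, up to 0.273 otherwise). Transcription factors called lower numbered 0 to 3 with a mouse left out and 1 without Klk6+ 3 and 5. For the interaction, DESeq2 called 261 genes and 1 of the 33, and leaving out a mouse gave 0 to 4 genes and 0 of the 33. No paired analysis was possible because the labels give no replicate numbers shared between genotypes. The median of all genes moved from 0.04 to -0.06 with upper-quartile scaling.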
